A study of Mus musculus with 17 samples.

Results

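Copper handling genes and metallothioneins were followed through cuprizone feeding and recovery in RNA bound to tagged ribosomes from mouse corpus callosum. The 9 genes were taken by name out of the 52373 gene identifiers that both batches list: the copper importer Slc31a1, the copper-exporting ATPase Atp7a, the copper chaperones Atox1 and Ccs, the copper enzymes Sod1 and Cp, and the metallothioneins Mt1, Mt2 and Mt3. All mice were male, of genotype GFAP-Cre+/- Rpl22HA/wt and 8 to 9 weeks old at the start. An HA-tagged ribosomal protein Rpl22 is switched on where Cre is made, GFAP-Cre targets astrocytes, and every group including the controls carries both alleles. Cuprizone mice ate chow with 0.2% cuprizone for 5 weeks and were sampled at 5 weeks or after 0.5 or 2 weeks back on normal chow, which are the 5.5-week and 7-week groups; mock mice were age-matched and stayed on normal chow. The 5-week libraries form batch 1, and the 5.5-week and 7-week libraries form batch 2, so a level at 5 weeks cannot be told apart from its batch.

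Cuprizone is a copper chelator used to strip myelin from the corpus callosum. Copper enters cells through Slc31a1 (CTR1) and is passed by Atox1 to the pumps of the secretory pathway, of which Atp7a also exports copper, while Ccs loads it into the superoxide dismutase Sod1. Astrocytes make ceruloplasmin (Cp), a copper-dependent ferroxidase, in a membrane-anchored form. Metallothioneins are small cysteine-rich proteins that bind zinc and copper. Mt1 and Mt2 are induced by metals through the factor MTF1 at metal response elements and by glucocorticoids, whereas Mt3 is a largely brain-specific form that metals induce little.

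The 3 metallothionein genes lie near each other on chromosome 8, and their upstream sequences are shown because the family was higher in the 5-week cuprizone library and because metals induce Mt1 and Mt2 through elements of this kind. The RefSeq promoter sequences (GRCm38.p6, plus strand) span the 250 bases before the transcription start, chr8:94178839-94179088 for Mt1, chr8:94172368-94172617 for Mt2 and chr8:94152357-94152606 for Mt3. Capitals mark each match, on either strand, to the element cores TGCACNC and TGCGCNC.
Mt1: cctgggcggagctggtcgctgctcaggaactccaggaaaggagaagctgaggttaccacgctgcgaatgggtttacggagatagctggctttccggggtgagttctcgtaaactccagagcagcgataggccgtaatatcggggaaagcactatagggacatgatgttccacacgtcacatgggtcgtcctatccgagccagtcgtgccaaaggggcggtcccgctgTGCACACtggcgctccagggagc
Mt2: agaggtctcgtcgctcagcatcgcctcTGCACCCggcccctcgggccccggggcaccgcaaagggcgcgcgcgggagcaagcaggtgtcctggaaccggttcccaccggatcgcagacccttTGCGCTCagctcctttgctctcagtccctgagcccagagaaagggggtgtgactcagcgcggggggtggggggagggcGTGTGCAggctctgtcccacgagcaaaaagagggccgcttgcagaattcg
Mt3: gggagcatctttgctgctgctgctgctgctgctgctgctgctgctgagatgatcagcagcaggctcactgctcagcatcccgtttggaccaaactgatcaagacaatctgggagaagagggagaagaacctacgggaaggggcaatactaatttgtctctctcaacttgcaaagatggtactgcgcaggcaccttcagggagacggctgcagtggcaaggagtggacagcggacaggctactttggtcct
In windows from 250 bases before to 50 after the start, with positions before it negative, Mt2 held 4 matches, at -223, -128, -50 and 5, and Mt1 held 3, at -23, 3 and 21. The only match of Mt3 was at 28, after the start, so none of its printed bases are in capitals. Atp7a held 2, at -132 and -120. Slc31a1, Atox1, Sod1 and Cp had no match in these windows, and 8 of the 9 genes had an entry, Ccs having none. Of 32851 mouse promoter windows of this length, 25.7% held at least 1 match, 7.11% at least 2, 1.97% at least 3 and 0.518% at least 4. Positions count from the start of the RefSeq entry. Bases beyond 50 after it and other starts of Mt1, Mt2 and Mt3 were not searched, so matches there are not counted. A match describes letters only.

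The 17 libraries are not 17 separate read counts. In 8 of them, 46.6% to 96.4% of the genes with 500 or more counts equal another library of the same group plus 1 to 10, against at most 3.97% between any of the other 9. For the 9 genes, 42 of the 72 values in such libraries were 1 to 10 above the repeated library and 0 were below it. The 9 separate libraries (20797535 to 30400048 counts each) carry all values below: cuprizone replicate 1 and mock replicate 2 at 5 weeks, cuprizone replicates 1, 2 and 3 and mock replicates 1 and 3 at 5.5 weeks, and cuprizone replicate 2 and mock replicate 3 at 7 weeks. Only at 5.5 weeks could cuprizone and mock be tested with replicates; at 5 and 7 weeks there is 1 library per group, so intervals there cover counting error and not the spread between mice. The 7-week cuprizone library stood apart. Its 6 endothelial markers summed to 273 CPM (counts divided by the library's total and scaled to the usual common total), against 0.673 to 3.93 CPM in the other 8 libraries, its 8 microglia markers to 864 CPM against 30.0 to 73.0 CPM, and it had 34576 genes with a count, against at most 23980. The 9 astrocyte markers summed to 8659 CPM or more in every library, while 8 oligodendrocyte markers (10697 to 22769 CPM) and 7 neuronal markers (6608 to 11481 CPM) were also abundant.

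Levels are given as CPM of each library's total counts. Per kilobase of the principal transcript, the order over the 9 libraries was led by Sod1 (median 290 CPM per kb, range 229 to 391), Mt3 (244, 187 to 1161) and Mt1 (219, 189 to 1547). Atox1 (60.3, 48.5 to 172) and Ccs (44.7, 39.9 to 65.7) came next, then Slc31a1 (7.24, 5.48 to 9.84). Mt2 (2.78, 1.08 to 24.7), Atp7a (1.23, 0.334 to 1.95) and Cp (0.892, 0.407 to 4.58) were lowest. The ranges of Sod1, Mt3 and Mt1 overlapped, as did those of Atox1 and Ccs and those of Mt2, Atp7a and Cp, so the order within each of these groups is not set beyond the spread. The range of Mt2 also takes in that of Slc31a1, so those neighbours do not differ beyond their spread, and in both separate 5-week libraries Mt2 was the higher per kb. Mt2 is uncertain throughout: 73.5% of its exonic bases overlap the antisense gene Gm45774, whose own level was 0.317 to 1.21 CPM, and whether the counting used strand is not given in the sources used here.

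**Figure D1:**
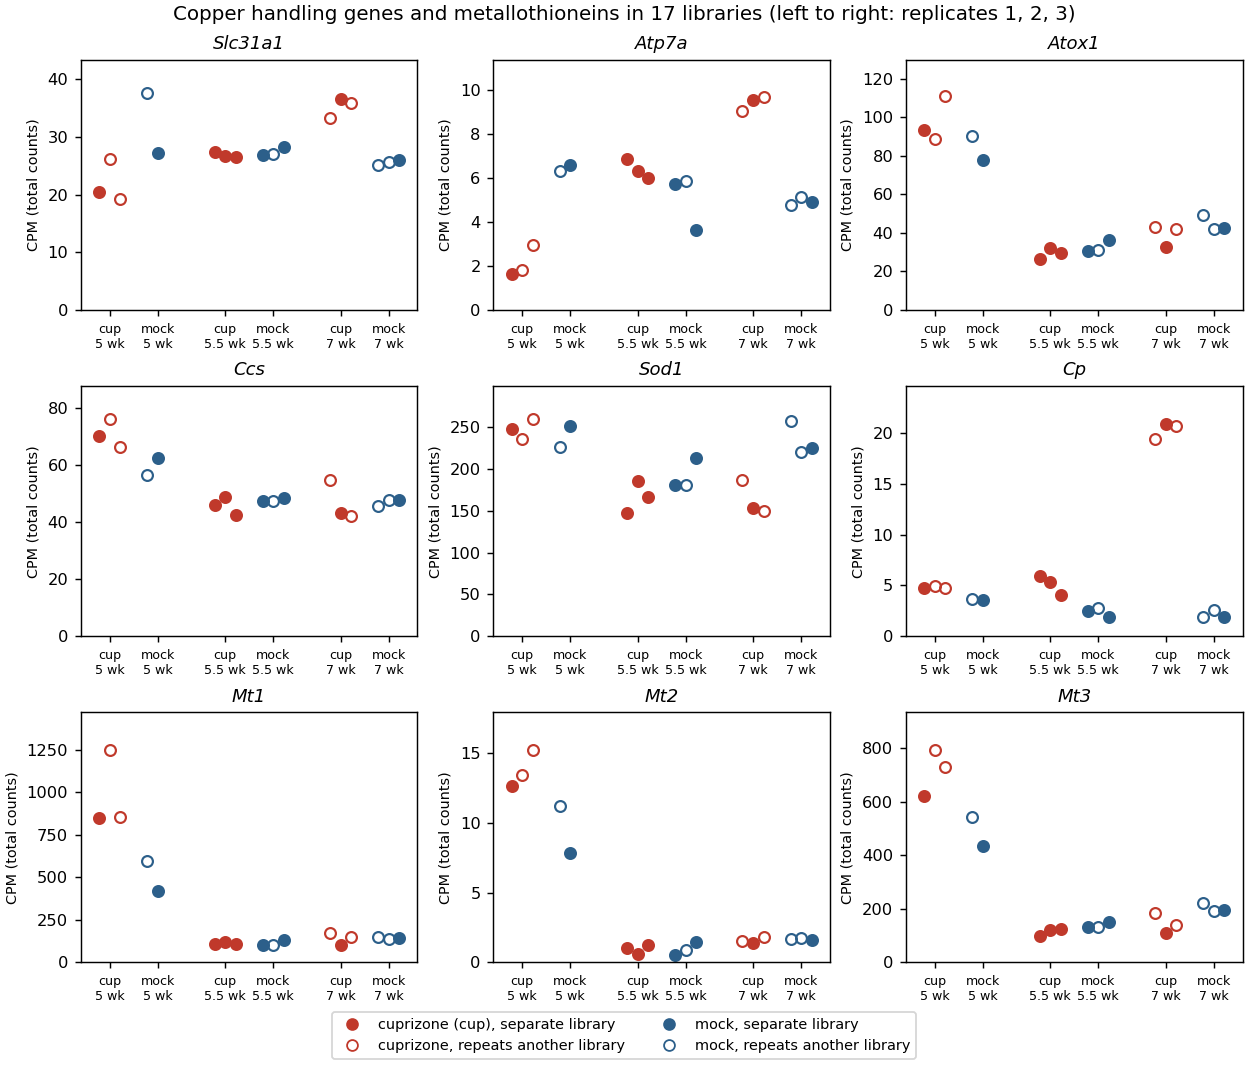
Levels of the 9 genes in all 17 libraries, in CPM of total counts on linear axes from 0; filled points are the 9 separate libraries, open points the 8 that repeat another library of their group, red is cuprizone and blue is mock, and replicates run left to right. Mt1, Mt2, Mt3 and Atox1 stand highest in the 5-week batch, Atp7a is lowest in the 5-week cuprizone libraries, and Cp is highest in the 7-week cuprizone libraries.

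Transcript length went with the change in all weeks. Log2 ratios of cuprizone to mock libraries were computed after TMM scaling, which centres on the bulk of genes; at 7 weeks it lowered every log2 ratio by 0.43 relative to total counts (by 0.10 at 5 weeks), and the median of all genes measured at 7 weeks was -0.23 with TMM and 0.20 with total counts. The median log2 ratio of the shortest and of the longest of 20 length bins was -0.12 and 0.20 at 5 weeks, -0.19 and 0.10 at 5.5 weeks, and -0.61 and 0.51 at 7 weeks. Mt2, Mt3, Atox1, Mt1, Sod1 and Ccs have transcripts of 0.511 to 1.067 kb, whereas Slc31a1, Cp and Atp7a have 3.718, 4.564 and 4.9 kb. The part of this trend in each gene's value was not tested, so values relative to genes of like length are given beside the results.

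**Figure D2:**
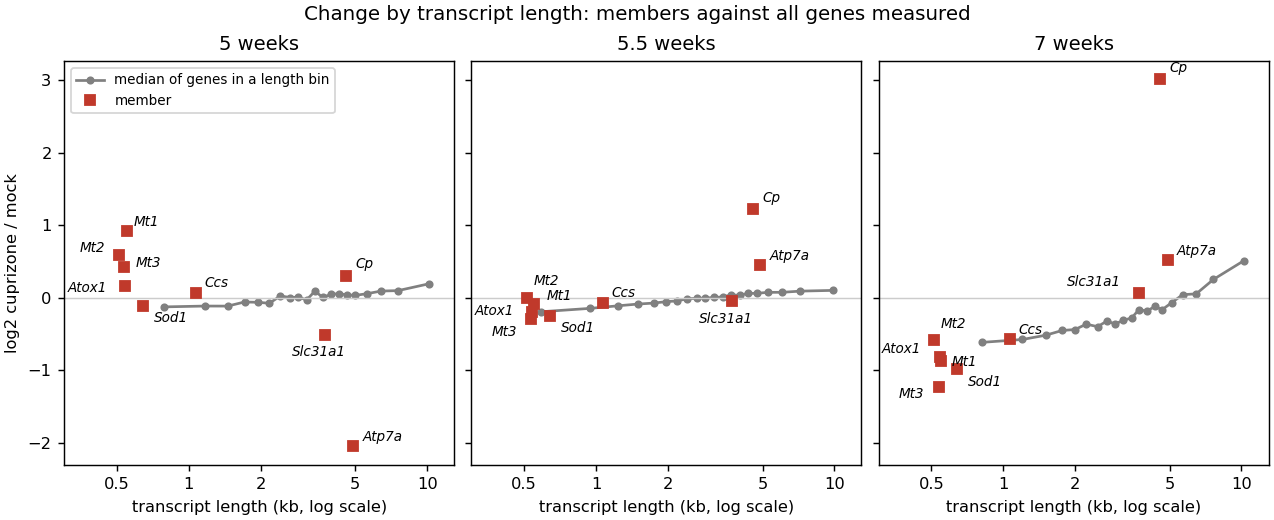
Log2 ratio of cuprizone to mock (vertical axis) against transcript length in kb (log scale) at 5, 5.5 and 7 weeks; grey points joined by lines are medians of genes in 20 length bins, and red squares are the 9 genes. At 7 weeks the grey medians span -0.61 to 0.51 and Ccs lies on them, while Cp stands above them in every panel and Atp7a lies below them only at 5 weeks.

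At 5.5 weeks, after 0.5 weeks of normal chow, Cp was the only one of the 9 genes that rose in cuprizone mice, and none fell, by edgeR's quasi-likelihood test (adjusted p under 0.05); 2 of the 9 had an unadjusted p under 0.05. Over all 16086 genes tested, 1.47% were called, 1.08% higher and 0.392% lower. The median log2 fold change was -0.06 over the 9 genes and 0.00 over all genes. Cuprizone and mock libraries did not overlap in CPM for 3 of the 9 genes, Cp, Atp7a and Mt3, where 27.8% of all genes tested did not overlap. DESeq2 also called Cp alone among the 9.

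The importer Slc31a1 did not pass the test at 5.5 weeks. It stood at 27.3, 26.6 and 26.6 CPM in cuprizone replicates 1, 2 and 3 at 5.5 weeks, against 26.9 and 28.3 CPM in mock replicates 1 and 3. The groups overlapped, with a log2 fold change of -0.04 ± 0.12 (SE; 95% interval -0.30 to 0.22). At 5 weeks it stood at 20.4 CPM in the cuprizone library and 27.2 CPM in the mock library, a log2 ratio of -0.51 (95% counting interval -0.70 to -0.33), and at 7 weeks at 36.6 CPM against 26.0 CPM, a ratio of 0.07 (-0.07 to 0.21). The 7-week difference in CPM thus nearly vanished with TMM scaling, and with total counts that ratio was 0.49.

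Atp7a, which pumps copper into the secretory pathway and out of the cell, was lower in the 5-week cuprizone library by more than any other of the 9 genes. It had 34 counts (1.63 CPM) in the cuprizone library and 140 counts (6.60 CPM) in the mock library, a log2 ratio of -2.05, or 4.13-fold lower with a 95% counting interval of 2.95 to 6.48. It was the only one of the 9 at least 2-fold lower at 5 weeks; 12.2% of 11570 genes measured, those with at least 5 CPM in 1 library, were, and 21.1% were at least 2-fold apart either way. Relative to genes of like length the log2 ratio was -2.08. With the repeating cuprizone replicates 2 (40 counts) and 3 (65 counts) in place of replicate 1, the ratio was -2.02 and -1.34. At 5.5 weeks the levels were 6.87, 6.33 and 6.03 CPM in cuprizone replicates 1, 2 and 3, against 5.72 and 3.64 CPM in mock replicates 1 and 3. Every cuprizone library was above both mock libraries, but the log2 fold change of 0.45 ± 0.22 did not pass the test (edgeR adjusted p = 0.487). At 7 weeks Atp7a stood at 9.57 CPM in the cuprizone library and 4.93 CPM in the mock library, a log2 ratio of 0.52 (0.23 to 0.83).

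The cuprizone effect on Atp7a differed between 5 weeks and 5.5 weeks, by -2.63 ± 0.44 on the log2 scale (edgeR interaction, adjusted p = 0.000177). That fit holds the 9 separate libraries and assumes that lone libraries vary like those of 5.5 weeks, and the 5-week pair is in another batch, so batch and week cannot be told apart. In all, 3 of the 9 genes differed in effect between these weeks, Atp7a, Mt1 and Mt3, where 23.2% of 20292 genes tested did. Other gene sets moved at 5 weeks too. The 8 mature oligodendrocyte markers had a median log2 ratio of -1.18, with 4 at least 2-fold lower. Within this set Mbp (0.15) and Cnp (0.38) were higher. The 8 summed to 10697 CPM in the cuprizone library against 14779 CPM in the mock library, and their part in the Atp7a value was not tested. These libraries hold RNA immunoprecipitated with tagged ribosomes. Fewer cells of a type, less RNA per cell and a smaller share of it in the precipitate cannot be told apart there.

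Neither copper chaperone changed at 5.5 weeks by the test. Atox1 stood at 26.3, 32.2 and 29.7 CPM in cuprizone replicates 1, 2 and 3, against 30.8 and 36.1 CPM in mock replicates 1 and 3, with a log2 fold change of -0.19 ± 0.13. Ccs stood at 46.1, 48.8 and 42.6 CPM in cuprizone mice, against 47.3 and 48.4 CPM in mock mice, with -0.06 ± 0.11. The groups overlapped for both. At 5 weeks Atox1 was at 93.2 CPM in the cuprizone library against 77.9 CPM in the mock library and Ccs at 70.2 against 62.4 CPM, log2 ratios of 0.16 and 0.07. At 7 weeks Atox1 was at 32.6 CPM in the cuprizone library against 42.7 CPM in the mock library and Ccs at 43.1 against 47.7 CPM, ratios of -0.81 and -0.57. Genes of like length had medians of -0.61 and -0.57 in that pair, which leaves -0.20 for Atox1 and 0.00 for Ccs.

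Sod1, the cytosolic copper-zinc superoxide dismutase that Ccs loads, did not pass the test at 5.5 weeks. It stood at 147, 186 and 166 CPM in cuprizone replicates 1, 2 and 3 at 5.5 weeks, against 181 and 213 CPM in mock replicates 1 and 3. Cuprizone replicate 2 lay above the lower mock library, and the log2 fold change was -0.25 ± 0.12 (edgeR adjusted p = 0.513). At 5 weeks the pair stood at 248 CPM in the cuprizone library and 251 CPM in the mock library, a log2 ratio of -0.11 that was 0.01 relative to genes of like length. At 7 weeks it stood at 153 CPM against 225 CPM, a ratio of -0.98 and -0.37 relative to genes of like length.

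Cp was the one of the 9 genes that passed the test. At 5.5 weeks it stood at 5.93, 5.29 and 4.07 CPM in cuprizone replicates 1, 2 and 3, against 2.48 and 1.86 CPM in mock replicates 1 and 3. All 3 cuprizone libraries were above both mock libraries, and the means were 5.10 ± 0.94 CPM in cuprizone mice (SD, n = 3) and 2.17 ± 0.44 CPM in mock mice (SD, n = 2). The log2 fold change was 1.23 ± 0.24, a 2.34-fold rise, with an edgeR adjusted p of 0.0294 and rank 173 of 16086 genes by p; the DESeq2 adjusted p was 0.00333. With offsets for transcript length the value was 1.17 (edgeR adjusted p = 0.0487). The call rests on few libraries: it was lost without mock replicate 1 (1.46, adjusted p = 0.0980), without mock replicate 3 (1.05, adjusted p = 0.254) and without cuprizone replicate 1 (1.10, adjusted p = 0.106).

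Marker sums of several cell types, astrocytes included, rose with Cp at 5.5 weeks. The 8 choroid plexus markers, of a tissue that itself makes ceruloplasmin, summed to 28.0, 34.2 and 49.8 CPM in cuprizone replicates 1, 2 and 3, against 13.4 and 11.8 CPM in mock replicates 1 and 3. Of the 6 of these that were tested, Ttr rose, at 9.43, 20.7 and 32.4 CPM in cuprizone mice against 1.21 and 1.56 CPM in mock mice (log2 fold change 3.91, edgeR adjusted p = 0.00694); Ttr was highest in cuprizone replicate 3, where Cp was lowest of the 3. The 8 microglia markers summed to 41.8, 53.8 and 41.7 CPM in cuprizone mice against 30.0 and 35.3 CPM in mock mice, with 0 of 8 called. The 9 astrocyte markers summed to 16022, 15648 and 13708 CPM in cuprizone mice against 10394 and 10941 CPM in mock mice, Gfap being the 1 of 9 that rose (log2 fold change 2.24). The median log2 fold change of these 9 was -0.02. The 8 mature oligodendrocyte markers summed to 21472, 22769 and 18508 CPM in cuprizone mice against 15348 and 16054 CPM in mock mice, with 2 of 8, Mog and Mag, called higher. The 5 oligodendrocyte precursor markers summed to 287, 305 and 242 CPM in cuprizone mice against 190 and 184 CPM in mock mice, with Gpr17 called higher. The 5 ependymal markers summed to 62.1, 61.3 and 52.7 CPM in cuprizone mice against 42.2 and 51.1 CPM in mock mice. Of these, 0 of 5 were called. The sums of neuronal, endothelial, and fibroblast and meningeal markers overlapped between the groups. The part of all these cells in the Cp value was not tested.

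At 7 weeks Cp had 516 counts (20.9 CPM) in the cuprizone library and 57 counts (1.88 CPM) in the mock library, 8.06-fold higher with a 95% counting interval of 6.30 to 11.1. It was the only one of the 9 genes at least 2-fold higher in that pair; 9.90% of 12173 genes measured were, and 15.4% were at least 2-fold apart either way. Its log2 ratio of 3.01 was 3.17 relative to genes of like length and lay at percentile 96.4 among 606 of them. The 7-week cuprizone library is the one with endothelial markers (6 of 6 at least 2-fold higher) at 273 CPM, microglia markers (8 of 8) at 864 CPM and choroid plexus markers at 68.3 CPM, against 2.47, 44.4 and 21.3 CPM in the 7-week mock library. Of the 2 choroid plexus markers measured, Ttr was at least 2-fold higher (52.5 against 6.35 CPM) and Kl at least 2-fold lower (4.26 against 12.2 CPM). Of the 4 fibroblast and meningeal markers measured, 3 were at least 2-fold higher and 0 lower. No other separate cuprizone library exists at 7 weeks, so there is no value without this library. The part of those cells in the Cp value was not tested. At 5 weeks Cp had 99 counts (4.76 CPM) in the cuprizone library and 76 counts (3.58 CPM) in the mock library, under the 5 CPM minimum, and the counting interval of the log2 ratio of 0.31 was -0.13 to 0.76.

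The cuprizone effect on Cp differed between 7 weeks and 5.5 weeks, by 1.91 ± 0.42 on the log2 scale (edgeR interaction in the fit of 9 libraries, adjusted p = 0.00455). The 7-week effect is 1 library against 1, so this error and p take their spread from the 5.5-week groups, and the cuprizone library is the one that stood apart in its markers. Mt1 (-0.69 ± 0.23, adjusted p = 0.0418) and Mt3 (-0.84 ± 0.23, adjusted p = 0.0166) differed as well, so 3 of the 9 genes did, where 17.2% of 20292 genes tested did. The Mt1 call was lost with DESeq2 (adjusted p = 0.0799), with RLE size factors in edgeR (0.0708) and in the fit of 17 deposited libraries (0.373), where the Mt3 call was lost as well (0.0563). The difference for Cp between 5 weeks and 5.5 weeks was -0.99 ± 0.43 and did not pass (edgeR adjusted p = 0.109). Cp shares 108 exonic bases, 1.13% of its own, with the antisense gene Hps3, which stood at 20.2 CPM in the 7-week cuprizone library and at 5.85 to 10.3 CPM in the others.

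**Figure D3:**
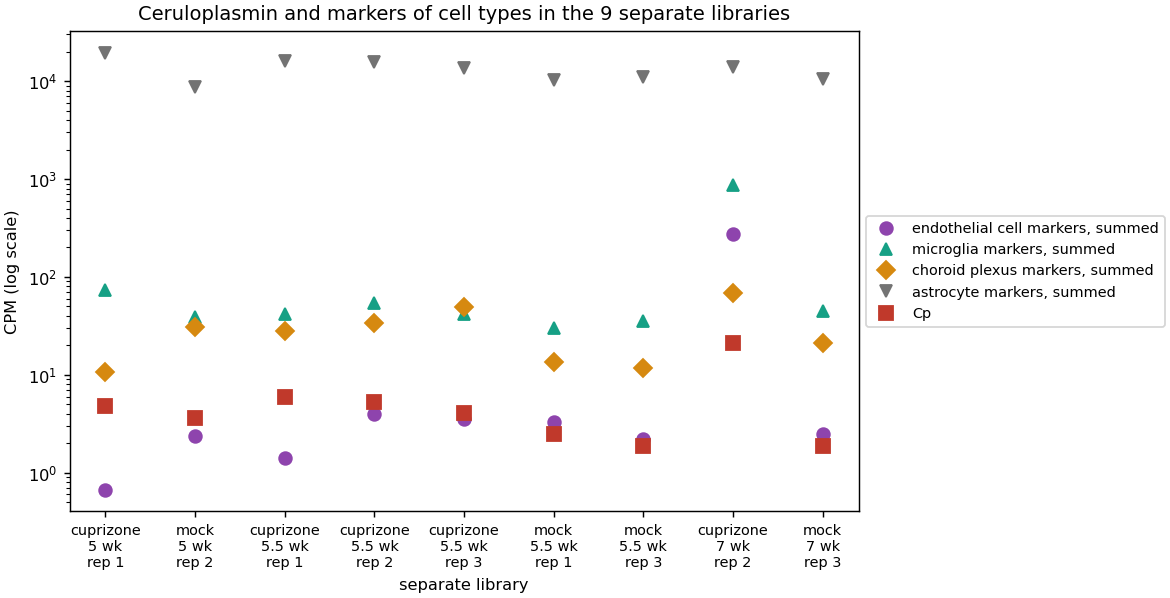
Cp (red squares) and summed markers of endothelial cells, microglia, choroid plexus and astrocytes in the 9 separate libraries, in CPM on a log axis, with each week's cuprizone libraries left of its mock libraries. Cp reaches 20.9 CPM in the 7-week cuprizone library, where the endothelial sum of 273 CPM and the microglia sum of 864 CPM also stand far above those of every other library.

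The metallothioneins were higher in the 5-week cuprizone library than in its mock library. Mt1 stood at 849 CPM in the cuprizone library and 420 CPM in the mock library, 1.89-fold higher (95% counting interval 1.84 to 1.94). Mt2 stood at 12.6 CPM against 7.83 CPM, 1.5-fold higher (1.24 to 1.85), and Mt3, the form made mainly in brain, at 622 CPM against 434 CPM, 1.34-fold higher (1.31 to 1.38). All 3 lie above the median of genes of like length, at percentiles 92.1, 89.5 and 85.7 of 579 genes. None reached 2-fold with TMM scaling, where 8.89% of genes did. Mt1 did so with total counts (log2 ratio 1.02), relative to genes of like length (1.04) and with the repeating cuprizone replicate 2 in place of replicate 1 (1.35), whereas with the repeating mock replicate 1 the Mt1 ratio was 0.55. In those repeating libraries Mt1 was far off the pattern of added integers, with an excess of up to 9754 counts. In the same pair the 9 astrocyte markers summed to 19376 CPM in the cuprizone library against 8659 CPM in the mock library, with Gfap alone at least 2-fold higher (log2 ratio 3.43). The 8 microglia markers summed to 73.0 CPM in the cuprizone library against 38.7 CPM in the mock library, with 4 of the 6 measured at least 2-fold higher. The part of these cells in the metallothionein values was not tested.

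The 5-week difference was not seen at 5.5 weeks. Mt1 stood at 108, 120 and 107 CPM in cuprizone replicates 1, 2 and 3, against 104 and 132 CPM in mock replicates 1 and 3. The groups overlapped, with a log2 fold change of -0.08 ± 0.12 (95% interval -0.35 to 0.19; edgeR adjusted p = 0.872), and the cuprizone effect differed from that at 5 weeks by 0.93 ± 0.23 (5 weeks minus 5.5 weeks, edgeR interaction, adjusted p = 0.00473). Mt2 was near the floor of detection, at 1.04, 0.633 and 1.27 CPM in cuprizone mice against 0.551 and 1.45 CPM in mock mice, with a log2 fold change of 0.00 ± 0.35. Mt3 stood at 100, 120 and 125 CPM in cuprizone mice against 131 and 151 CPM in mock mice. All 3 cuprizone libraries were below both mock libraries for Mt3. The log2 fold change of -0.30 ± 0.12 did not pass the adjustment (edgeR adjusted p = 0.385), and relative to genes of like length it was -0.11. Its effect at 5 weeks differed from that at 5.5 weeks by 0.65 ± 0.23 (edgeR interaction, adjusted p = 0.0409).

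At 7 weeks Mt1 and Mt3 were lower in the cuprizone library, beside a general lowering of short transcripts. Mt3 stood at 111 CPM in the cuprizone library and 195 CPM in the mock library, 2.35-fold lower (95% counting interval 2.25 to 2.46), the only one of the 9 at least 2-fold lower, where 5.54% of genes were. Its log2 ratio was -1.23 with TMM, -0.80 with total counts and -0.62 relative to genes of like length, at percentile 3.27 of 611. With the repeating cuprizone replicates 1 and 3 in place of replicate 2 it was -0.54 and -1.03. Mt1 stood at 104 CPM against 141 CPM. Its log2 ratio was -0.87 with TMM, -0.44 with total counts and -0.25 relative to genes of like length, at percentile 23.6 of 611. With the repeating cuprizone replicates 1 and 3 in place of replicate 2 the Mt1 ratio was -0.21 and -0.47. In CPM those repeating libraries, at 170 and 150, were above the 138 to 148 of the 7-week mock libraries, so the lower Mt1 rests on cuprizone replicate 2. Mt2 was at 1.42 CPM against 1.61 CPM, under the minimum, and its log2 ratio of -0.58 became 0.03 relative to genes of like length.

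The metallothioneins differed by more between the 5-week mock library and the later mock libraries than between diets within a week. In the 5-week mock library Mt2 was 6.50-fold, Mt1 3.34-fold, Mt3 2.73-fold and Atox1 2.13-fold above the mean of the 3 later separate mock libraries. The same ratio was 1.73 for Cp, 1.39 for Atp7a, 1.31 for Ccs, 1.21 for Sod1 and 1.00 for Slc31a1. The 4 genes with the highest ratios have the 4 shortest transcripts of the 9. Week and batch cannot be told apart in this comparison of mock libraries.

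**Figure D4:**
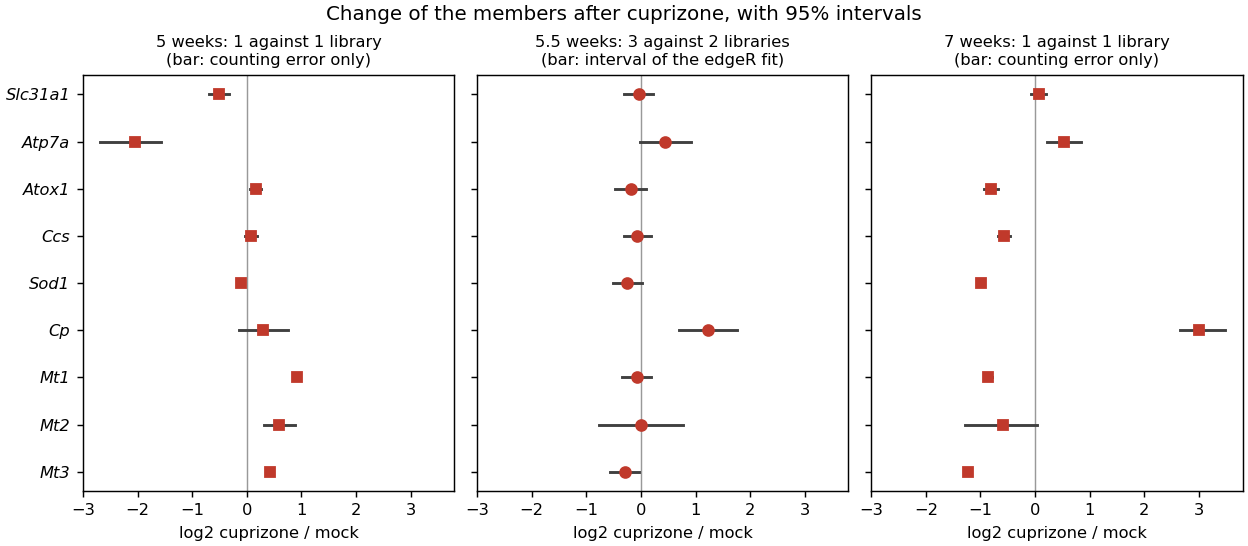
Log2 ratio of cuprizone to mock for the 9 genes at 5, 5.5 and 7 weeks, with 95% intervals: counting error only at 5 and 7 weeks (1 library per group), the edgeR fit at 5.5 weeks (3 cuprizone and 2 mock libraries). Atp7a is at -2.05 at 5 weeks, Cp at 1.23 at 5.5 weeks and 3.01 at 7 weeks, and the 3 metallothioneins lie above 0 at 5 weeks and below 0 at 7 weeks, where the interval of Mt2 crosses 0, the values with total counts are closer to 0, and Mt2 is at 0.03 relative to genes of like length.

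Other genes were read from 5 lists with 68 genes, 4 lists of copper and zinc handling and 1 of 7 glucocorticoid response genes, and 57 of the 68 were tested at 5.5 weeks. There 2 rose and 1 fell. In the list of copper entry, export and membrane reductases, 1 of 7 tested rose and 0 fell (median log2 fold change 0.19). It was Steap4, a membrane metalloreductase that can reduce copper and iron, at 1.75, 0.723 and 0.538 CPM in cuprizone replicates 1, 2 and 3, against 0 and 0.0372 CPM in mock replicates 1 and 3 (edgeR adjusted p = 0.0196). These are 82 counts in all in cuprizone mice and 1 in mock mice, a ratio of 58.9 whose exact 95% counting interval runs from 10.3 to 2355. Among the chaperones and mitochondrial copper delivery factors 0 of 11 were called by edgeR or DESeq2, 0 had an unadjusted p under 0.05, and the median was -0.19.

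Among the copper enzymes 1 of 10 tested rose and 0 fell (median 0.04). Moxd1, a relative of the copper enzyme dopamine beta-hydroxylase, stood at 6.13, 3.93 and 4.46 CPM in cuprizone mice against 1.07 and 1.19 CPM in mock mice, a log2 fold change of 2.10 ± 0.27 (edgeR adjusted p = 0.00307). It was 11.9-fold higher at 7 weeks (9.85 CPM in the cuprizone library, 0.559 CPM in the mock library; 95% counting interval 8.01 to 22.9). At 5 weeks it had 151 counts in the cuprizone library and 0 in the mock library, at least 48.0-fold higher taking 3 counts as the most that a mock count of 0 allows; the exact 95% counting interval, which also holds the error of the 151 counts, starts at 38.6-fold. Among the genes of metallothionein regulation and zinc transport 0 of 22 rose and 1 fell (median 0.11). Slc39a12, a zinc importer of the ZIP family, stood at 76.4, 86.5 and 81.5 CPM in cuprizone mice against 116 and 117 CPM in mock mice, a log2 fold change of -0.52 ± 0.11 (edgeR adjusted p = 0.0313). Steap4 and Slc39a12 lost their calls when either mock library was left out, Slc39a12 also without cuprizone replicate 1 or 3, and Moxd1 without mock replicate 1. Steap4 also lost its call with all 6 deposited libraries (log2 fold change 2.97, edgeR adjusted p = 0.108) and with the mean of mock replicates 1 and 2 as 1 library (3.21, adjusted p = 0.0608), against 5.51 with the 5 separate libraries. Mtf1, the metal-sensing activator of Mt1 and Mt2, had a log2 fold change of 0.07 ± 0.11 (edgeR adjusted p = 0.874).

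At 5 weeks, 13 of 46 measured list genes were at least 2-fold lower in the cuprizone library and 1 higher, against 12.2% and 8.89% of all genes measured. Of these 13, 10 belong to the 19 measured genes of the zinc list, whose median log2 ratio was -1.11. Slc30a3, which loads zinc into synaptic vesicles, stood at 35.1 CPM in the cuprizone library and 136 CPM in the mock library, 4.14-fold lower (3.83 to 4.51). The zinc exporter Slc30a1, itself an MTF1 target, was 4.11-fold lower (3.09 to 5.92) and the zinc importer Slc39a3 4.10-fold lower (3.60 to 4.73). Outside that list, Pam, a copper-dependent peptide amidating enzyme, was 2.73-fold lower, Slc46a3, a lysosomal transporter, 3.27-fold lower, and mt-Co1, a copper-binding subunit of cytochrome oxidase encoded in mitochondrial DNA, 3.71-fold lower. The 7 neuronal markers, of which 2 were at least 2-fold lower, summed to 8679 CPM in the cuprizone library and 11481 CPM in the mock library, and their part in these values was not tested.

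At 7 weeks, 6 of 48 measured list genes were at least 2-fold higher and 4 lower, against 9.90% and 5.54% of all genes measured. These are values of 1 library per group, and the cuprizone library is the one that stood apart in its endothelial and microglia markers. The part of those cells in the list values was not tested. Besides Moxd1, the higher ones were mt-Co1 (7.35-fold, 755 CPM in the cuprizone library and 76.3 CPM in the mock library), Slc39a8 (6.37-fold), the mitochondrial copper chaperone Cox17 (4.57-fold), Slc30a1 (2.62-fold) and Slc39a14 (2.5-fold), where the SLC genes are zinc transporters. All 4 lower ones were in the list of 7 glucocorticoid response genes, with a median log2 ratio of -1.21, among them Errfi1 (3.53-fold lower), Tsc22d3 (3.16-fold lower) and Zbtb16 (2.37-fold lower). TMM scaling lowered every log2 ratio at 7 weeks by 0.43 relative to total counts. By total counts Zbtb16 was at 51.1 CPM in the cuprizone library against 90.3 CPM in the mock library. Sgk1, also among the 4, was at 67.1 against 116 CPM. Both were thus less than 2-fold lower by total counts. Over all genes measured, TMM gave 1205 at least 2-fold higher and 674 lower, and total counts gave 2054 and 114. Tsc22d3, also called GILZ, stood at 152 CPM in the 7-week cuprizone library and 358 CPM in the mock library. At 5.5 weeks its levels were 159, 166 and 151 CPM in cuprizone replicates 1, 2 and 3, against 194 and 368 CPM in mock replicates 1 and 3. Mock replicate 3 was the highest there, and 0 of the 7 were called at 5.5 weeks by edgeR, 2 with an unadjusted p under 0.05 and 1 by DESeq2.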

How the data were processed

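RNA immunoprecipitated with HA-tagged ribosomes was sequenced from corpus callosum. For 9 libraries the authors deposited raw counts by Ensembl identifier, made with FastQC 0.11.9, STAR 2.5.4b and featureCounts 1.6.0 per the submitters' processing notes, which name both GRCm38/mm10 and GRCm39/mm39. The whole numbers that the authors deposited for the other 8 libraries are treated as a score, since they repeat another library with added integers. How they were made is not given in the sources used here, and they enter alternatives only. Symbols and transcript lengths came from GENCODE M21, which names all 9 members. The members and lists were chosen with earlier results of these data known.

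At 5.5 weeks, genes passing filterByExpr (minimum count 10) were TMM-scaled and tested by the quasi-likelihood F test of edgeR 4.0.16 (R 4.3.3), two-sided, with Benjamini-Hochberg adjustment and threshold 0.05 (3 residual and a median of 8.64 prior degrees of freedom). The labels call the libraries biological replicates. At 5 and 7 weeks, log2 ratios used a prior count of 2, a minimum of 5 CPM in 1 library and exact (Clopper-Pearson) intervals covering counting error only. The difference between weeks is an interaction in a fit of the 9 separate libraries. DESeq2 1.42.0, other scalings, left-out libraries and offsets over 20 length bins (the last chosen after seeing the data) were alternatives; the code was tested on simulated data. All members are named. Of each list, the genes called at 5.5 weeks and up to 3 at least 2-fold apart at 5 and 7 weeks are named. Mtf1, Sgk1, marker genes and overlapping genes are named in addition. Likeness to Mt1 or Cp is not given, since their levels fall into separate clusters of libraries.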

Additional observations from a re-analysis of the deposited data

Results flagged for a closer look

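For 6 values the cuprizone effect differed between weeks in the edgeR fit of the 9 separate libraries. Between 7 and 5.5 weeks, within batch 2, the effect on Cp differed by 1.91 on the log2 scale, with both effects upward. In the same comparison the effects on Mt1 and Mt3 differed by -0.69 and -0.84; the Mt1 difference was lost with DESeq2 (-0.62, adjusted p = 0.0799), and with RLE size factors (-0.62, adjusted p = 0.0708), and both were lost in the fit of 17 deposited libraries (-0.27 and -0.49, adjusted p = 0.373 and 0.0563). Between 5 and 5.5 weeks, across the batches, the effect on Atp7a differed by -2.63, on Mt1 by 0.93 and on Mt3 by 0.65, and these passed under every alternative run. Each of the lone libraries at 5 and 7 weeks is assumed to vary like the 5.5-week groups.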

How the results depend on the processing

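Among the 9 genes only Cp was called at 5.5 weeks in the main analysis, and it kept its call in 11 of 14 alternatives, with a log2 fold change from 1.05 to 1.46. Leaving out each library in turn gave 0 to 1 members higher, 1.05 to 1.46 for Cp, -0.54 to 0.85 for Mt2, -0.0730 to 0.00323 for Slc31a1 and -0.23 to 0.11 for Mt1. Uncalled values near 0 turned round elsewhere: Mt2 to -0.0114 with DESeq2, -0.000408 without the low-count filter and -0.12 with the mean of mock replicates 1 and 2 as 1 library; Slc31a1 to 0.00732 and Mt1 to 0.0184 in the fit of 17 libraries; Atox1 to 0.00555, Ccs to 0.0857 and Mt1 to 0.12 with length-bin offsets.

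Counts of genes higher and lower at 5.5 weeks, 173 and 63, were 381 and 162 without the low-count filter, 614 and 175 in the fit of 17 libraries, and 49 to 189 and 16 to 85 with a library left out; all 6 deposited libraries gave 314 higher. With the replicate number as a block they were 481 and 269. The groups share only the numbers 1 and 3 among separate libraries, whose correlations of deviations were 0.04 and -0.08. With 2 separate mock libraries, the mock deviations are opposite by construction. These values therefore cannot decide whether the numbers pair libraries. The block changed no call of a member. List genes higher (2) and lower (1) were 1 higher with the mean of mock replicates 1 and 2, 4 and 3 in the fit of 17 libraries, 2 lower with DESeq2, with the replicate block and with all 6 libraries, 3 lower without the filter, and 0 to 2 and 0 to 2 with a library left out.

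Members at least 2-fold higher at 5 weeks numbered 1 (Mt1) in place of 0 with total counts, length-bin centring or cuprizone replicate 2. Members at least 2-fold lower at 7 weeks numbered 0 in place of 1 with total counts, length-bin centring or cuprizone replicate 1, and 2 with cuprizone replicate 3. Members whose effect differed between 7 and 5.5 weeks, 3 in the main analysis, numbered 5 with length-bin offsets, 4 without the low-count filter, and 2 with DESeq2, with RLE size factors and in the fit of 17 libraries; between 5 and 5.5 weeks they numbered 5 in place of 3 in the fit of 17 libraries. The causes were not tested. With 1 separate library per group at 5 and 7 weeks, and Cp, Mt2 and Atp7a at a few CPM, the spread between mice is not known there.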
